A study of Caenorhabditis elegans with 16 samples.

Results

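The genes described here are the astacin metalloproteases and the molting-defective genes of C. elegans, chosen by name as every row of the count table whose gene name begins with nas- or mlt-. There are 42 of them among the 19122 genes of the table, 34 with nas- names and 8 with mlt- names. The 16 sequenced samples were RNA of whole animals collected as synchronized L4 larvae, 4 for each of 4 genotypes. The wild type was the non-transgenic strain N2. The other strains all carried the unc-119(ed3) III allele, each with a different transgene: GR3105 had mgTi21(SKN-1t[NNNN]), NJL2492 had mgTi42(SKN-1t[NDNN]) and NJL2494 had mgTi41(SKN-1t[DNDD]). SKN-1t is a truncated, constitutively active form of the transcription factor SKN-1, driven everywhere by the rpl-28 promoter and carrying HA and GFP tags. The 4 letters give the residues at the glycosylation sites of SKN-1, where N is asparagine and D is the aspartate that mimics sequence editing, the enzymatic conversion of asparagine to aspartate. Each transgenic genotype was represented by a single insertion and differs from N2 in the unc-119 allele as well, so that effects of the insertion or of that allele cannot be told apart from those of SKN-1t. The comparisons address which genes respond to activated SKN-1 and how that response depends on the edited residues.

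Nematodes grow by molting: at the end of each larval stage the epidermis secretes a new cuticle beneath the old one, the old one is loosened by proteases, and the animal sheds it in ecdysis. Astacins are secreted zinc metalloproteases, a family that is enlarged in nematodes and includes enzymes that digest cuticle and process collagens. The mlt- genes were named for animals that fail to shed the old cuticle. They encode unrelated proteins, among them protease inhibitors, a peroxidase and partners of the NEKL kinases, and the mRNAs of many molting genes rise and fall in every larval stage, so that their level in a whole animal depends on where in the stage it is.

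Levels are given as CPM, each gene's count relative to the library size of its sample (scaled by TMM over the 16 samples), always in the order of replicates 1 to 4. Total counts were 23806929 to 30457636 per sample. Of the 42 genes, 35 had enough reads to be tested, which were all 8 mlt- genes and 27 of the nas- genes. The other 7 did not pass the filter on low counts in any comparison: nas-10, nas-17, nas-18, nas-19, nas-21, nas-24 and nas-25. Each of these had at most 31 reads in any sample, that highest count being nas-21 in wild type replicate 3. A gene was called higher or lower when it differed over 2-fold with an adjusted p below 0.01 by the quasi-likelihood test of edgeR, with p-values adjusted over all genes tested by the Benjamini-Hochberg method, which is the source of every adjusted p below. The methods describe biological replicates as separate populations of animals, in a general statement that does not name the sequencing, and the tests measure the spread between these samples. In whole animals, fewer cells of a type and less RNA per cell cannot be told apart.

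Samples of 1 genotype differed in ways that touch these genes. The summed level of 9 adult-onset genes, the vitellogenins vit-1 to vit-6 and the collagen genes col-19, col-7 and col-62, was 4360, 11669, 24709 and 13295 CPM in the wild type and 95.3, 110.4, 104.9 and 222.9 CPM in SKN-1t[NNNN] animals. In SKN-1t[NDNN] animals it was 159.8, 109.1, 936 and 287.5 CPM, and in SKN-1t[DNDD] animals 143.7, 335.8, 1947 and 4007 CPM. Every transgenic sample was below every wild type sample, wild type replicate 1 was the lowest of its group, and replicates 3 and 4 of SKN-1t[DNDD] stood far above replicates 1 and 2. The reads of skn-1 itself were 112.3 to 132.8 CPM in the wild type and higher in every transgenic sample. They were 269.5 to 335.2 CPM in SKN-1t[NNNN], 256.6 to 320.1 CPM in SKN-1t[NDNN] and 205.5 to 256.4 CPM in SKN-1t[DNDD] animals. Every SKN-1t[DNDD] sample was thus below every SKN-1t[NNNN] sample, and the part of this difference in the results was not tested.

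**Figure D1:**
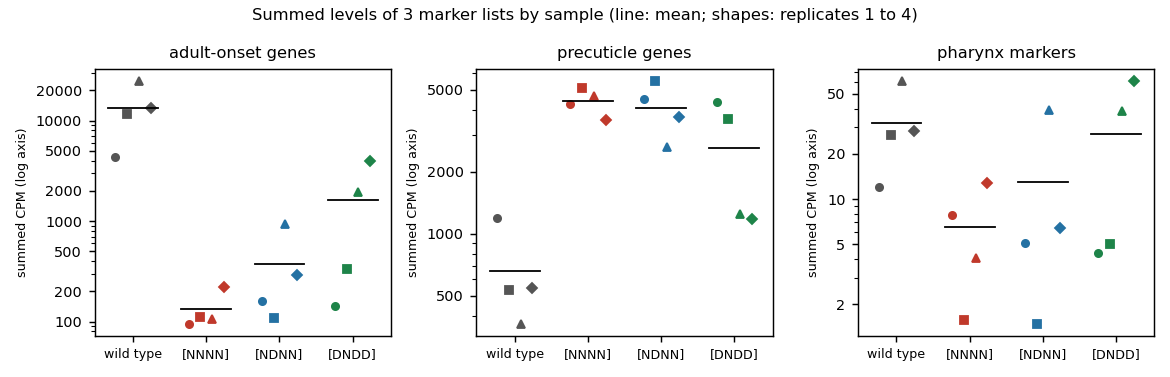
Summed CPM (log axis) of the adult-onset, precuticle and pharynx marker lists in the 16 samples, with a line at each group's mean and a different shape for each replicate. Adult-onset genes were lowest in SKN-1t[NNNN] animals, at 95.3 to 222.9 CPM, and precuticle genes were above the highest wild type sample (1188 CPM) in every transgenic sample except SKN-1t[DNDD] replicate 4 (1181 CPM).

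In the wild type, these genes together took 0.0846% to 0.145% of all counted reads. Per kilobase of gene length, the most abundant was mlt-8, a gene found by its molting defect after RNAi, at 257.2 ± 91.4 CPM per kb (SD, n = 4). It was followed by nas-7, an astacin linked to the grinder of the pharynx, at 60.4 ± 12.3 CPM per kb, by mlt-10, which encodes a secreted protein of the epidermis, at 55.7 ± 26.5 CPM per kb, and by mlt-9 at 46.6 ± 26.3 CPM per kb. The fifth was mlt-7, a heme peroxidase that cross-links cuticle collagens, at 30.12 ± 15.03 CPM per kb. Only the step from mlt-8 to nas-7 was larger than the spread between samples, and the order from nas-7 to mlt-7 was within it. In every SKN-1t[NNNN] and SKN-1t[NDNN] sample the reads shifted towards mlt-11. This gene, which encodes a large secreted protein with Kunitz-type protease inhibitor domains, made up 10.02% to 24.02% of all reads of these 42 genes in the wild type. The same share was 46.2% to 55.8% for SKN-1t[NNNN] animals, 31.3% to 54.5% for SKN-1t[NDNN] animals and 18.6% to 50.9% for SKN-1t[DNDD] animals. SKN-1t[DNDD] replicates 3 and 4, at 18.6% and 23.6%, were inside the wild type range.

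Relative to the wild type, 7 of the 35 tested genes were higher in SKN-1t[NNNN] animals (20%, against 7.03% of all genes tested) and 9 were lower (25.7%, against 6.12%). The genes that rose were nas-3, nas-9, nas-11, nas-33, nas-37, mlt-2 and mlt-11. Those that fell were all astacins: nas-7, nas-8, nas-13, nas-22, nas-23, nas-27, nas-30, nas-36 and nas-38. In SKN-1t[NDNN] animals 6 were higher (17.1%, against 6.85%), namely nas-3, nas-37, mlt-2, mlt-4, mlt-9 and mlt-11, and 2 were lower (5.71%, against 3.34%), nas-13 and nas-30. In SKN-1t[DNDD] animals only nas-3 was higher (2.86%, against 3.44%) and none was lower (against 3.35%), where at an unadjusted p below 0.05 there was 1 lower gene, nas-13 (2.86%, against 21.5%), and DESeq2 called 0. When 1 sample was left out, the higher and lower counts ran from 3 to 8 and 6 to 10 in SKN-1t[NNNN] (3 without wild type replicate 4), from 2 to 7 and 1 to 7 in SKN-1t[NDNN] (2 without wild type replicate 4, and 7 lower without SKN-1t[NDNN] replicate 3) and from 0 to 1 and 0 to 0 in SKN-1t[DNDD] animals. The 7 higher genes of SKN-1t[NNNN] were 4 with RLE scaling or with no filter on low counts. The 3 comparisons share the same wild type samples.

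**Figure D2:**
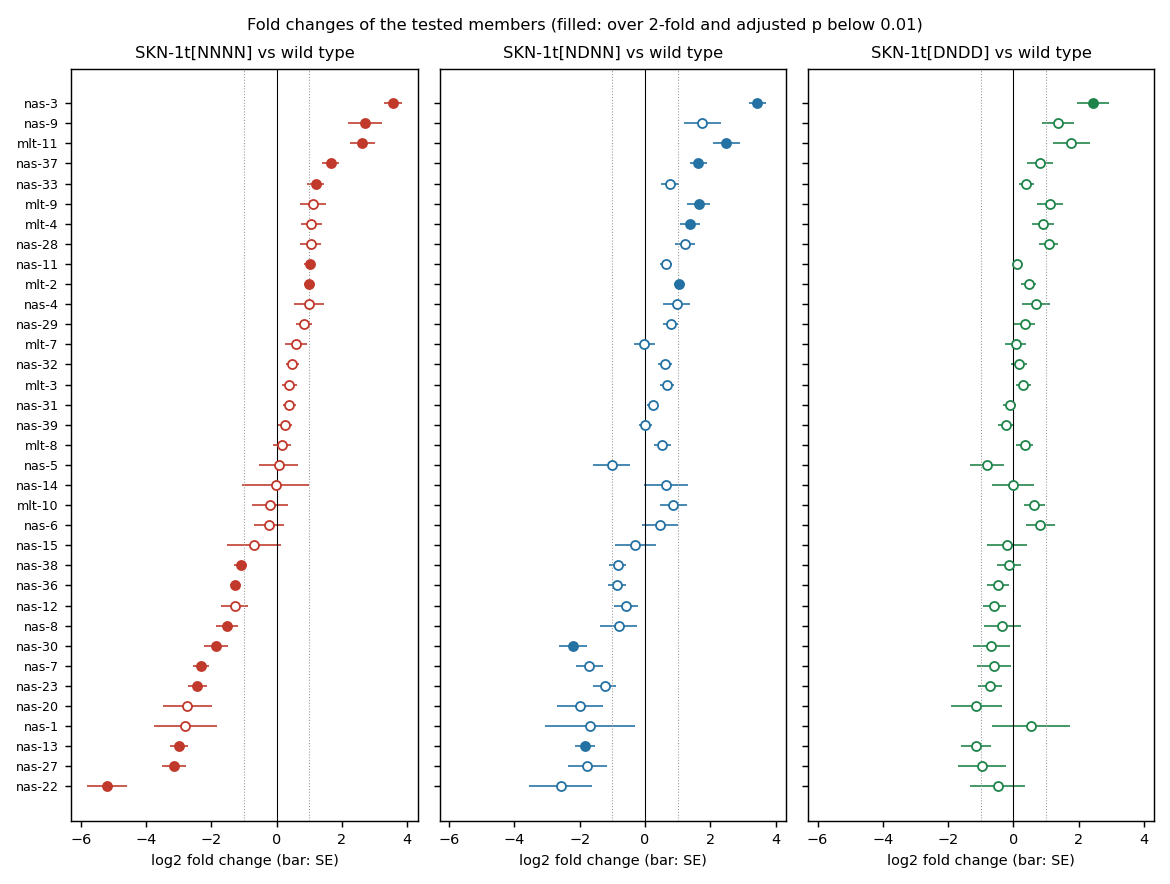
Log2 fold change against the wild type of the 35 tested genes in each strain, with bars for the standard error, filled points for called genes and dotted lines at 2-fold. The order is that of the SKN-1t[NNNN] comparison, running from nas-3 at 3.56 to nas-22 at -5.20.

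The replicate numbers paired the samples of SKN-1t[NDNN] and of SKN-1t[DNDD] with those of the wild type. With the replicate number as a block, nas-7 and nas-27 were also lower in SKN-1t[NDNN] animals, which made 4 lower genes, and mlt-9 and mlt-11 were also higher in SKN-1t[DNDD] animals, which made 3 higher genes. The numbers also paired SKN-1t[NNNN] with both of these strains, and so link it to the wild type. For SKN-1t[NNNN] against the wild type, where the samples of replicate 3 correlated at 0.0626, the block left 4 higher and 6 lower genes. There it ended the calls of nas-8, nas-9, nas-11, nas-30, nas-33 and nas-38. The shares of all genes called with the block are not given here.

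The tested mlt- genes had a median log2 fold change of 0.80 for SKN-1t[NNNN] animals, 0.96 for SKN-1t[NDNN] animals and 0.55 for SKN-1t[DNDD] animals, while that of the tested nas- genes was -0.22, -0.30 and -0.14, beside 0.14, 0.077 and 0.043 over all genes tested. No mlt- gene was called lower in any comparison. Of the astacins numbered nas-16 to nas-30, 7 were tested. In SKN-1t[NNNN] animals 4 of these were lower and none was higher, with a median log2 fold change of -2.43. Over all genes tested there, 6.12% were lower. Within these 7, nas-28 (1.04) and nas-29 (0.83) changed upwards and were not called. The same 7 held 1 lower gene for SKN-1t[NDNN] (median -1.77) and none for SKN-1t[DNDD] (median -0.68). Astacins nas-6 to nas-15 had 2 higher and 3 lower genes of 9 tested in SKN-1t[NNNN] animals. The 4 genes nas-33 and nas-36 to nas-38 had 2 higher and 2 lower. These medians and counts describe the genes that passed the filter only.

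The largest increase was that of nas-3, an astacin whose gene lies at chrV:9478163-9479601 (WBcel235). Its level was 1.41, 0.782, 0.793 and 1.22 CPM in the wild type and 12.9, 11.7, 13.95 and 7.72 CPM in SKN-1t[NNNN] animals. It was 11.3, 13.9, 9.45 and 8.58 CPM in SKN-1t[NDNN] animals and 7.15, 9.98, 2.58 and 3.06 CPM in SKN-1t[DNDD] animals. No transgenic sample overlapped the wild type, and SKN-1t[DNDD] replicates 3 and 4 were the lowest of the transgenic samples. The log2 fold change was 3.56 ± 0.28 (SE, n = 4, adjusted p = 4.82e-05) in SKN-1t[NNNN], 3.45 ± 0.27 (adjusted p = 7.55e-05) in SKN-1t[NDNN] and 2.44 ± 0.48 (adjusted p = 0.00682) in SKN-1t[DNDD]. The last call was lost in the fits that left out any 1 wild type sample or SKN-1t[DNDD] replicate 1 or 2, with values of 2.04 to 2.61 and adjusted p up to 0.0276. Set against each other directly, SKN-1t[DNDD] was lower than SKN-1t[NNNN] by a log2 difference of -1.02 ± 0.37, which was not called (adjusted p = 0.0812, and -1.14 with adjusted p = 0.0164 with the replicate block).

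The gene mlt-11 (chrV:20667205-20678537), which took the largest share of these reads in SKN-1t[NNNN] animals, was at 376.3, 179.9, 92.8 and 168.1 CPM in the wild type and at 1012, 1334, 1247 and 1062 CPM in SKN-1t[NNNN] animals. In SKN-1t[NDNN] animals it reached 1175, 1443, 683.1 and 1031 CPM, and in SKN-1t[DNDD] animals 1291, 838.7, 296.1 and 349.8 CPM. The first pair of strains lay wholly above the wild type, whereas SKN-1t[DNDD] replicates 3 and 4 fell below wild type replicate 1. Its log2 fold change was 2.62 ± 0.39 (adjusted p = 0.00107) in SKN-1t[NNNN] and 2.50 ± 0.43 (adjusted p = 0.00248) in SKN-1t[NDNN], where the call was lost without wild type replicate 2 (2.39, adjusted p = 0.0113) or replicate 4 (2.41, adjusted p = 0.0112). In SKN-1t[DNDD] it was 1.77 ± 0.56 and was called with the replicate block (adjusted p = 0.0436 without it and 9.8e-04 with it).

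The astacin nas-37, which digests the old cuticle in ecdysis, rose in animals of SKN-1t[NNNN] and also of SKN-1t[NDNN]. It was at 92.4, 51.8, 40.0 and 48.8 CPM in the wild type, 134.0, 184.4, 179.3 and 178.9 CPM in SKN-1t[NNNN] and 184.3, 177.9, 131.6 and 183.2 CPM in SKN-1t[NDNN] animals. SKN-1t[DNDD] animals had 160.6, 133.7, 58.4 and 54.3 CPM. The first pair of strains was above every wild type sample, and SKN-1t[DNDD] overlapped the wild type in its replicates 3 and 4. The log2 fold changes were 1.65 ± 0.26 (adjusted p = 0.00145), 1.63 ± 0.26 (adjusted p = 0.00186) and 0.81 ± 0.41 (adjusted p = 0.149). Its relative nas-36, which is also needed for ecdysis, went the other way. It was at 28.7, 38.6, 39.4 and 33.3 CPM in the wild type, 11.9, 11.2, 15.6 and 15.01 CPM in SKN-1t[NNNN] animals, 11.8, 12.9, 30.2 and 17.5 CPM in SKN-1t[NDNN] and 11.1, 20.4, 42.1 and 26.1 CPM in SKN-1t[DNDD] animals. All SKN-1t[NNNN] samples were below the wild type, and the other strains overlapped it. The fall of nas-36 was -1.26 ± 0.16 (adjusted p = 4.44e-04) in SKN-1t[NNNN], beside -0.86 ± 0.28 (adjusted p = 0.0438) and -0.48 ± 0.34 (adjusted p = 0.298), which were not called. In the fits that left out 1 sample each, the SKN-1t[NNNN] calls of nas-36 and nas-37 were all kept.

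Of the other astacins with thrombospondin-type repeats, nas-33 and nas-38 also went opposite ways in SKN-1t[NNNN] animals. Animals of the wild type had 3.74, 3.52, 6.13 and 5.02 CPM of nas-33, and SKN-1t[NNNN] animals 13.2, 10.4, 9.08 and 6.45 CPM, without overlap. The log2 fold change of nas-33 was 1.20 ± 0.26 (adjusted p = 0.00694), and this call was lost without any 1 of the samples other than SKN-1t[NNNN] replicate 4 (1.03 to 1.31, adjusted p up to 0.0364). In SKN-1t[NDNN] animals it was at 8.57, 9.88, 5.58 and 5.15 CPM and in SKN-1t[DNDD] animals at 5.94, 7.28, 4.60 and 6.32 CPM, both overlapping the wild type. For nas-38, which promotes sleep in molting larvae, the wild type had 34.1, 42.7, 49.8 and 39.3 CPM and SKN-1t[NNNN] animals 24.97, 12.9, 17.5 and 16.3 CPM. These did not overlap, and the log2 fold change was -1.10 ± 0.20 (adjusted p = 0.00324), a call lost without SKN-1t[NNNN] replicate 3 (-1.08, adjusted p = 0.0136). Levels of nas-38 in SKN-1t[NDNN] animals were 16.9, 14.3, 34.5 and 21.6 CPM and in SKN-1t[DNDD] animals 15.1, 28.6, 56.8 and 49.1 CPM, and both overlapped the wild type.

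The astacins nas-9 and nas-11 rose in SKN-1t[NNNN] animals and were not called in the other strains. The level of nas-9 was 1.54, 0.869, 4.55 and 3.69 CPM in the wild type, 24.5, 15.1, 14.8 and 10.1 CPM in SKN-1t[NNNN] animals, 12.8, 11.4, 5.06 and 4.52 CPM in SKN-1t[NDNN] and 7.68, 8.02, 4.82 and 6.91 CPM in SKN-1t[DNDD] animals. All samples of SKN-1t[NNNN] and of SKN-1t[DNDD] exceeded the wild type, while SKN-1t[NDNN] overlapped it in replicate 4. Its log2 fold change in SKN-1t[NNNN] was 2.71 ± 0.51 (adjusted p = 0.00372), and without wild type replicate 1 or 4 or SKN-1t[NNNN] replicate 2 or 3 it was 2.52 to 2.85 with adjusted p up to 0.0111. Neither direct difference from SKN-1t[NNNN] in nas-9 passed the test, at -0.93 ± 0.46 (adjusted p = 0.53) for SKN-1t[NDNN] and -1.23 ± 0.46 (adjusted p = 0.0903) for SKN-1t[DNDD]. The level of nas-11 was 15.6, 13.9, 12.9 and 15.3 CPM in the wild type, 22.4, 21.8, 27.6 and 35.0 CPM in SKN-1t[NNNN] animals, 16.1, 17.5, 22.9 and 28.2 CPM in SKN-1t[NDNN] and 16.5, 15.7, 16.03 and 13.8 CPM in SKN-1t[DNDD] animals. The first pair of strains lay above the wild type and the third overlapped it. The log2 fold change of nas-11 in SKN-1t[NNNN] was 1.01 ± 0.17 (adjusted p = 0.00236), so close to the 2-fold limit that the call was lost without wild type replicate 2, 3 or 4 or SKN-1t[NNNN] replicate 4 (0.83 to 0.98). Compared directly, nas-11 in SKN-1t[DNDD] animals was below its level in SKN-1t[NNNN] animals by a log2 difference of -0.78 ± 0.18 (adjusted p = 0.0111) and did not pass the fold limit.

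**Figure D3:**
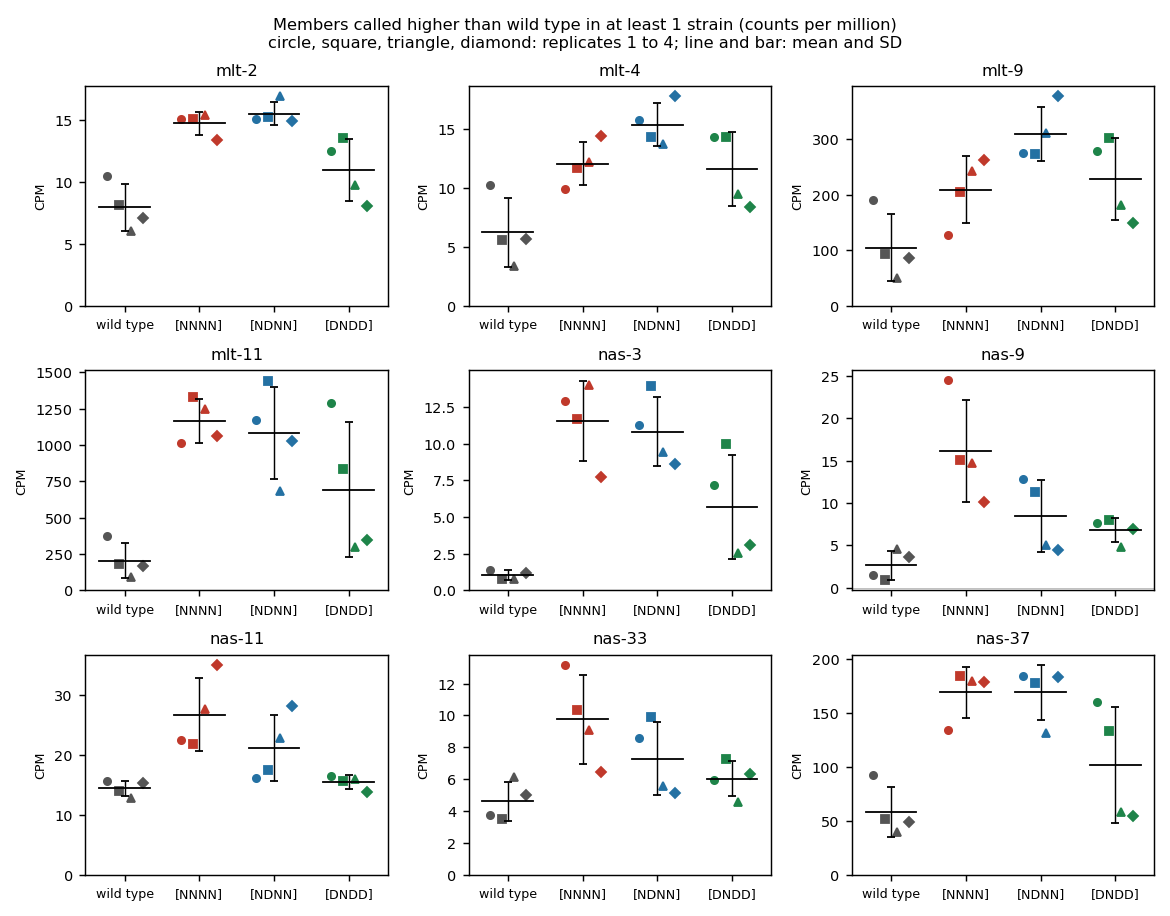
CPM in each sample of the 9 genes called higher than the wild type in at least 1 strain, with the mean and SD of each group; the linear axes reach down to 0 or just below. The SKN-1t[DNDD] samples of mlt-11 split into 1291 and 838.7 CPM in replicates 1 and 2 and 296.1 and 349.8 CPM in replicates 3 and 4.

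Among the mlt- genes, MLT-2, MLT-3 and MLT-4 are ankyrin-repeat proteins that bind the NEKL kinases, which act in endocytosis of the epidermis during molting. mlt-2 was at 10.4, 8.17, 6.05 and 7.11 CPM in the wild type, 15.1, 15.03, 15.4 and 13.4 CPM in SKN-1t[NNNN] animals, 15.02, 15.2, 16.9 and 14.9 CPM in SKN-1t[NDNN] and 12.4, 13.5, 9.75 and 8.03 CPM in SKN-1t[DNDD] animals. The first pair of strains lay above the wild type and the third overlapped it. Its log2 fold changes of 1.01 ± 0.17 (adjusted p = 0.00219) and 1.05 ± 0.17 (adjusted p = 0.00205) were again near the limit, and the SKN-1t[NNNN] call was lost without wild type replicate 2, 3 or 4 or SKN-1t[NNNN] replicate 2 or 3 (0.84 to 0.99), the SKN-1t[NDNN] call without wild type replicate 3 (0.94) or 4 (0.996). For mlt-4 the wild type had 10.3, 5.65, 3.38 and 5.71 CPM and SKN-1t[NDNN] animals 15.8, 14.3, 13.7 and 17.8 CPM, without overlap. SKN-1t[NNNN] animals had 9.97, 11.7, 12.2 and 14.4 CPM and SKN-1t[DNDD] animals 14.3, 14.4, 9.53 and 8.39 CPM of mlt-4, and both overlapped wild type replicate 1. The log2 fold change of mlt-4 was 1.39 ± 0.30 (adjusted p = 0.00787) in SKN-1t[NDNN], and the call held only in the fits without wild type replicate 1 or 3, the others giving 1.29 to 1.44 with adjusted p up to 0.0298. It was 1.07 ± 0.32 (adjusted p = 0.028) in SKN-1t[NNNN] and 0.90 ± 0.34 (adjusted p = 0.0734) in SKN-1t[DNDD], neither of which was called.

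For mlt-9 the levels were 190.0, 93.1, 50.7 and 87.4 CPM in the wild type, 127.1, 204.3, 243.6 and 263.0 CPM in SKN-1t[NNNN] animals, 275.7, 273.1, 310.7 and 376.7 CPM in SKN-1t[NDNN] and 279.5, 301.9, 181.2 and 150.0 CPM in SKN-1t[DNDD] animals. Only SKN-1t[NDNN] lay wholly above the wild type, with a log2 fold change of 1.64 ± 0.36 (adjusted p = 0.00804), a call that also held only without wild type replicate 1 or 3 (the others gave 1.53 to 1.69 with adjusted p up to 0.0299). It was 1.11 ± 0.40 (adjusted p = 0.0568) for SKN-1t[NNNN]. For SKN-1t[DNDD] animals it was 1.12 ± 0.40 and was called with the replicate block (adjusted p = 0.0598 without it and 0.00561 with it). Directly compared in mlt-9, SKN-1t[NDNN] minus SKN-1t[NNNN] was 0.56 ± 0.34 (adjusted p = 0.66).

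The other 4 mlt- genes were called in no comparison. mlt-3 had log2 fold changes of 0.39 ± 0.22 (adjusted p = 0.188), 0.67 ± 0.22 (adjusted p = 0.0479) and 0.30 ± 0.23 (adjusted p = 0.341), given here in the order SKN-1t[NNNN], then SKN-1t[NDNN], then SKN-1t[DNDD]. For mlt-7, the peroxidase, they were 0.60 ± 0.35 (adjusted p = 0.211), -0.018 ± 0.34 (adjusted p = 0.977) and 0.071 ± 0.32 (adjusted p = 0.879), and for mlt-8 they were 0.16 ± 0.27 (adjusted p = 0.677), 0.52 ± 0.26 (adjusted p = 0.164) and 0.34 ± 0.26 (adjusted p = 0.322). Wild type replicate 3 stood apart from the others of its group in both genes, at the highest mlt-7 level (142.5 CPM against 54.3 to 71.2) and the lowest mlt-8 level (144.2 CPM against 262.9 to 361.1). mlt-10 was the most uneven of these genes. It was at 206.7, 126.8, 55.3 and 132.0 CPM in the wild type, 37.3, 63.1, 120.3 and 193.2 CPM in SKN-1t[NNNN] animals, 169.7, 129.7, 284.5 and 311.7 CPM in SKN-1t[NDNN] and 189.8, 193.4, 206.1 and 214.6 CPM in SKN-1t[DNDD] animals. The spread within the wild type and within SKN-1t[NNNN] covered most of the difference between them, and only the SKN-1t[DNDD] samples were close together. Its log2 fold changes were -0.20 ± 0.54 (adjusted p = 0.804), 0.87 ± 0.41 (adjusted p = 0.138) and 0.64 ± 0.32 (adjusted p = 0.154). The tolloid-like astacin nas-39, in the same family as vertebrate BMP1, was called in none either, with log2 fold changes of 0.26 ± 0.21 (adjusted p = 0.357), 0.0018 ± 0.20 (adjusted p = 0.997) and -0.24 ± 0.23 (adjusted p = 0.442).

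The other 12 tested astacins were called in no comparison: nas-1, nas-4, nas-5, nas-6, nas-12, nas-14, nas-15, nas-20, nas-28, nas-29, nas-31 and nas-32. Their log2 fold changes ran from -2.80 to 1.04 in SKN-1t[NNNN], from -1.996 to 1.225 in SKN-1t[NDNN] and from -1.13 to 1.08 in SKN-1t[DNDD] animals. The highest in each case was nas-28, named here after its values were seen, whose wild type samples had 0.540, 0.304, 0.542 and 0.380 CPM and whose transgenic samples had 0.626 to 1.19 CPM. All 12 transgenic samples were above the wild type at this low level, with adjusted p of 0.0313, 0.0131 and 0.0232.

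**Figure D4:**
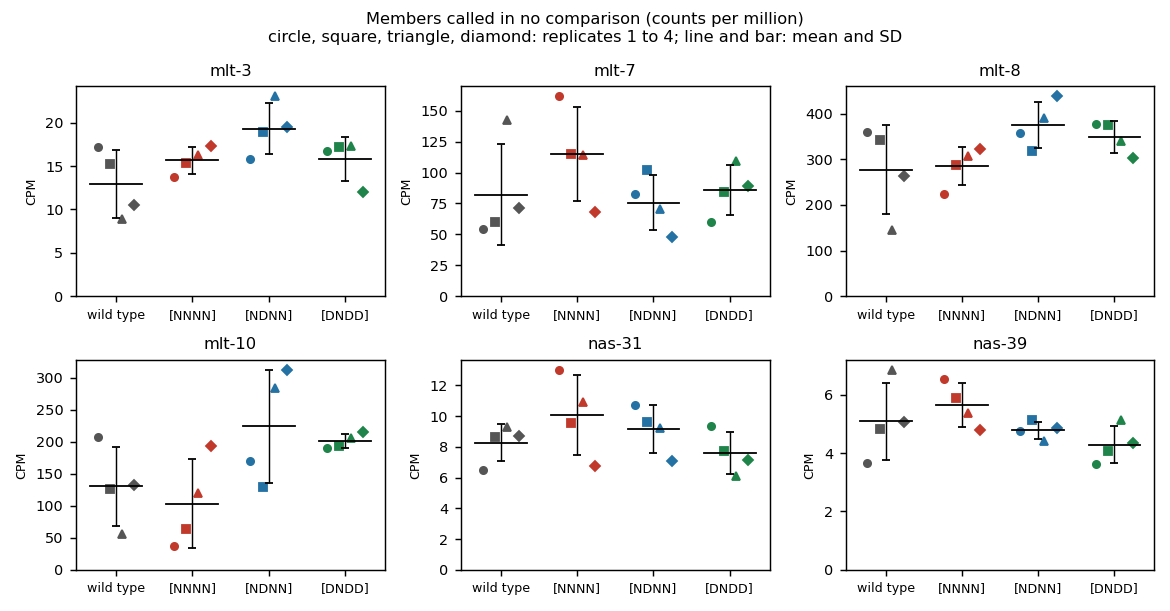
CPM in each sample of 6 genes called in no comparison, the mlt- genes mlt-3, mlt-7, mlt-8 and mlt-10 and the astacins nas-31 and nas-39, with group means and SD on linear axes from 0. Every genotype overlaps the wild type in all 6, and the levels of mlt-10 range from 37.3 to 193.2 CPM within SKN-1t[NNNN] alone.

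Of the astacins that fell, nas-7 had the most reads in the wild type. It was at 58.7, 93.8, 93.6 and 79.1 CPM in the wild type, 21.5, 10.3, 15.1 and 13.4 CPM in SKN-1t[NNNN] animals, 15.6, 11.8, 48.3 and 18.3 CPM in SKN-1t[NDNN] and 12.1, 37.8, 96.9 and 67.1 CPM in SKN-1t[DNDD] animals. The first pair of strains was below every wild type sample, while SKN-1t[DNDD] ran from below the lowest to above the highest wild type sample. The log2 fold change was -2.32 ± 0.24 (a 4.98-fold fall, adjusted p = 1.90e-04) for SKN-1t[NNNN] and -1.70 ± 0.42 for SKN-1t[NDNN], where it was called with the replicate block (adjusted p = 0.0137 without it and 0.0061 with it). In SKN-1t[DNDD] it was -0.60 ± 0.51 (adjusted p = 0.387). Directly compared, SKN-1t[DNDD] was higher than SKN-1t[NNNN] by 1.83 ± 0.53 (adjusted p = 0.0361), which was not called. A list of 3 pharynx markers, myo-2, tnt-4 and ceh-22, had a summed level in the wild type of 12.05 to 60.63 CPM. It was 1.57 to 12.8 CPM in SKN-1t[NNNN], 1.48 to 39.1 CPM in SKN-1t[NDNN] and 4.35 to 60.9 CPM in SKN-1t[DNDD] animals. None of the 3 was at 0 in a whole group and none was called, but ceh-22 had too few reads to be tested in SKN-1t[NNNN] against the wild type. In that comparison myo-2 had a log2 fold change of -2.61 ± 0.77 (adjusted p = 0.0281) and tnt-4 one of -1.40 ± 0.63 (adjusted p = 0.115). The part of the pharynx in the nas-7 values was not tested.

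In nas-23 the wild type had 30.8, 30.4, 16.8 and 23.2 CPM and SKN-1t[NNNN] animals 4.10, 2.54, 4.90 and 5.72 CPM, without overlap. SKN-1t[NDNN] animals had 6.34, 5.73, 17.7 and 10.6 CPM and SKN-1t[DNDD] animals 6.81, 13.2, 25.4 and 16.3 CPM, and both overlapped the wild type. Its log2 fold change was -2.43 ± 0.30 (adjusted p = 4.16e-04), -1.24 ± 0.37 (adjusted p = 0.0301) and -0.70 ± 0.37 (adjusted p = 0.165) in the 3 strains, of which only the first was called. In nas-27 the wild type had 4.40, 8.91, 14.2 and 9.47 CPM, and SKN-1t[NNNN] animals 0.684, 0.939, 1.07 and 1.15 CPM. SKN-1t[NDNN] had 1.32, 0.773, 5.68 and 2.46 CPM and SKN-1t[DNDD] 0.492, 2.27, 10.5 and 5.56 CPM. Replicate 3 of SKN-1t[NDNN] and replicates 3 and 4 of SKN-1t[DNDD] were inside the wild type range. For nas-27 the log2 fold change was -3.14 ± 0.38 (adjusted p = 3.74e-04) for SKN-1t[NNNN] and -1.77 ± 0.60 for SKN-1t[NDNN], called there with the replicate block (adjusted p = 0.0496 without it and 0.00812 with it). It was -0.97 ± 0.74 (adjusted p = 0.332) in SKN-1t[DNDD].

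The gene nas-13 fell in SKN-1t[NNNN] animals and in those of SKN-1t[NDNN], and these calls were kept in every fit that left out 1 sample. It was at 3.24, 3.83, 3.59 and 3.12 CPM in the wild type, 0.360, 0.235, 0.553 and 0.422 CPM in SKN-1t[NNNN] animals, 0.540, 0.612, 1.45 and 0.997 CPM in SKN-1t[NDNN] and 0.378, 1.32, 1.91 and 2.53 CPM in SKN-1t[DNDD] animals. No transgenic sample overlapped the wild type. The log2 fold changes were -2.996 ± 0.288 (adjusted p = 1.29e-04), -1.84 ± 0.32 (adjusted p = 0.00267) and -1.15 ± 0.47 (adjusted p = 0.0882). By contrast nas-30 was at 21.1, 41.6, 56.0 and 37.9 CPM in the wild type, 16.7, 9.00, 8.81 and 5.45 CPM in SKN-1t[NNNN] animals, 7.36, 5.92, 14.8 and 3.66 CPM in SKN-1t[NDNN] and 6.36, 11.5, 42.2 and 36.9 CPM in SKN-1t[DNDD] animals. The third strain overlapped the wild type and the others did not. The falls of nas-30, -1.86 ± 0.38 (adjusted p = 0.00506) in SKN-1t[NNNN] and -2.21 ± 0.44 (adjusted p = 0.005) in SKN-1t[NDNN], were both lost without wild type replicate 2, 3 or 4 and without SKN-1t[NNNN] replicate 2 or 3, or SKN-1t[NDNN] replicate 1 or 2, with values of -1.68 to -1.92 and -1.995 to -2.249 and adjusted p up to 0.0203 and 0.0171.

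Reads of nas-22 nearly vanished in SKN-1t[NNNN] animals. There were 31, 31, 79 and 56 reads in the wild type and 1, 0, 2 and 2 reads in SKN-1t[NNNN], or 1.29, 1.35, 3.30 and 2.13 CPM against 0.036, 0, 0.0691 and 0.0768 CPM. SKN-1t[NDNN] animals had 0, 0, 23 and 14 reads and SKN-1t[DNDD] animals 2, 11, 86 and 63 reads, and in CPM SKN-1t[DNDD] replicates 3 and 4 (3.21 and 2.07) were inside the wild type range and its replicates 1 and 2 (0.0757 and 0.372) below it. The fitted log2 fold change was -5.20 ± 0.61 (adjusted p = 3.55e-04) in SKN-1t[NNNN], -2.58 ± 0.97 (adjusted p = 0.0722) in SKN-1t[NDNN] and -0.48 ± 0.85 (adjusted p = 0.685) in SKN-1t[DNDD]. The gene stands at chrV:11474699-11478007 beside nas-20 and nas-21, which span chrV:11470925-11472309 and chrV:11472564-11473899. The neighbours were also low in SKN-1t[NNNN] animals. nas-20 was at 1.16, 1.65, 12.6 and 6.58 CPM in the wild type against 1.01, 0.744, 0.898 and 0.384 CPM, a log2 fold change of -2.73 ± 0.76 that was not called (adjusted p = 0.022), and nas-21 was among the genes not tested, with 3, 7, 31 and 13 reads against 0, 0, 2 and 0. These 2 neighbours were named after their values were seen. A second run of neighbours on the same chromosome, nas-17, nas-18 and nas-19, had at most 6 reads in any sample. In the annotation, nas-4, nas-22, nas-39 and mlt-10 overlap another coding gene on the same strand and nas-7, nas-8, nas-10, nas-11, nas-12, nas-13, nas-25, nas-29, nas-33, nas-37 and mlt-3 overlap one on the opposite strand, so reads in the shared stretches are uncertain.

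The last of the called astacins, nas-8, was at 3.99, 5.69, 11.6 and 7.42 CPM in the wild type, 3.13, 2.07, 2.21 and 1.77 CPM in SKN-1t[NNNN] animals, 2.13, 1.64, 9.04 and 2.59 CPM in SKN-1t[NDNN] and 1.78, 2.61, 8.86 and 9.32 CPM in SKN-1t[DNDD] animals. SKN-1t[NNNN] lay below the wild type and the other strains overlapped it. The log2 fold change in SKN-1t[NNNN] was -1.53 ± 0.34 (adjusted p = 0.0084), and the call was kept only in the fit without wild type replicate 1, the others giving -1.25 to -1.70 with adjusted p up to 0.029.

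**Figure D5:**
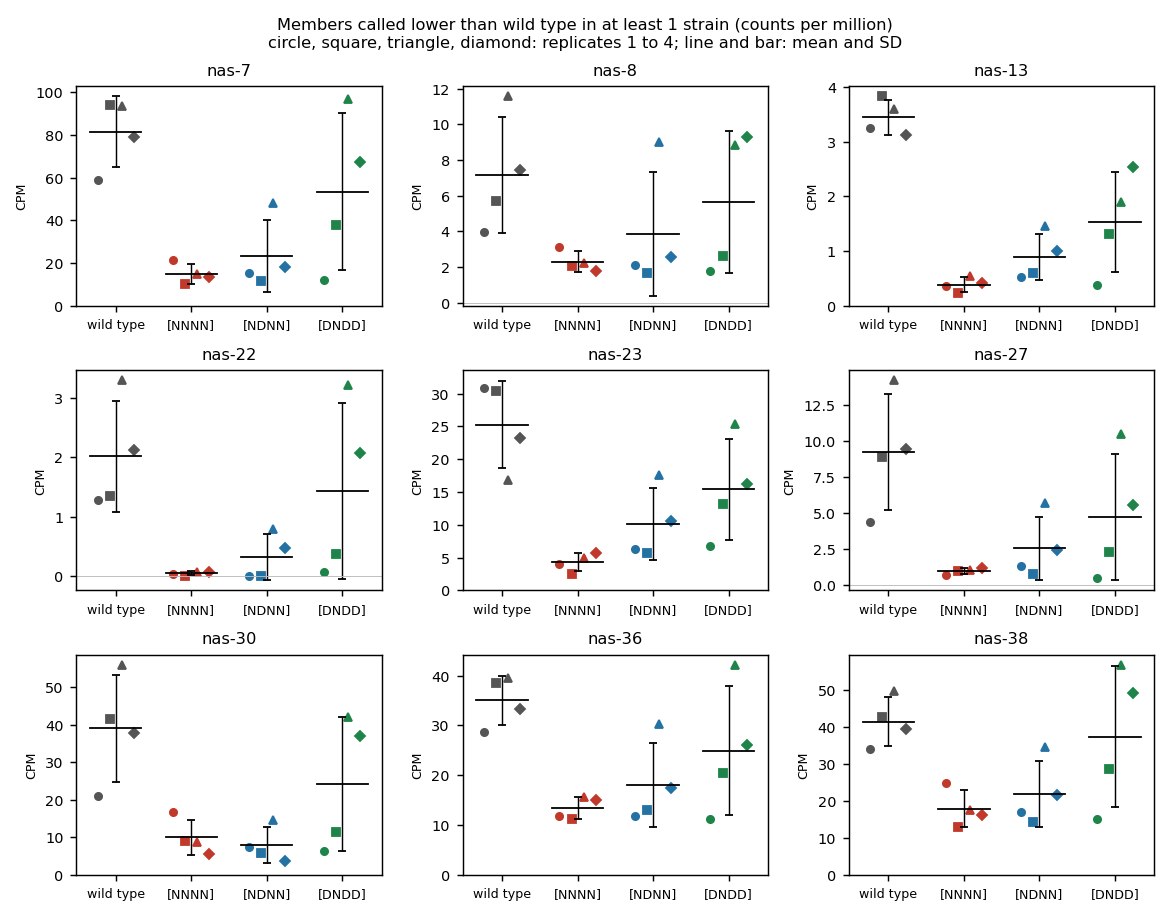
CPM in each sample of the 9 astacin genes called lower than the wild type in at least 1 strain, with group means and SD on linear axes that reach down to 0 or just below. In SKN-1t[DNDD] animals the third replicate is the highest for nas-7, at 96.9 CPM, and the first is the lowest, at 12.1 CPM.

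The adult-onset genes described above were lower too. All 9 adult-onset genes were called lower in SKN-1t[NNNN] animals (median log2 fold change -8.26), 5 of 9 in SKN-1t[NDNN] (-4.86, and 9 with the replicate block) and 3 of 9 in SKN-1t[DNDD] (-2.999, and 6 with the replicate block). None of the 9 was at 0 throughout a group. Replicate 3 of SKN-1t[NDNN], the highest of its group in the adult-onset sum, was also the highest of its group in each of the 9 astacins called lower. In SKN-1t[DNDD] animals replicates 3 and 4, which had the highest adult-onset sums, had the highest 2 levels of the group in each of these 9 genes. The other groups did not follow the sum in every gene: SKN-1t[NNNN] replicate 4, with the highest sum of its group, was the highest in 3 of the 9 (nas-22, nas-23 and nas-27) and the lowest in nas-8 and nas-30, and wild type replicate 3, with the highest sum, was the highest in 6 of the 9 and the lowest in nas-23. The part of the stage of the animals in these results was not tested.

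Direct comparisons among the transgenic strains were made in 1 fit of all 16 samples. None of the 35 tested genes was called in either direction by edgeR in any of the 3 comparisons. Of SKN-1t[DNDD] against SKN-1t[NNNN], 1.88% of all genes were called higher and 0.734% lower. In the other comparisons these shares were 0.35% and 0.0135% (SKN-1t[NDNN] against SKN-1t[NNNN]) and 0.128% and 0.128% (SKN-1t[DNDD] against SKN-1t[NDNN]). At an unadjusted p below 0.05, the comparison of SKN-1t[DNDD] with SKN-1t[NNNN] held 18 of the 35 (51.4%, against 30.4% of all genes), that of SKN-1t[NDNN] with SKN-1t[NNNN] held 3 (8.57%, against 10.1%) and that of SKN-1t[DNDD] with SKN-1t[NDNN] held 7 (20%, against 18.4%). DESeq2 called 4 higher and 0 lower in the first of these and 0 in the others, and its shares of all genes are not given here. At an adjusted p below 0.05 whatever the fold, 5 genes differed in SKN-1t[DNDD] from their level in SKN-1t[NNNN] (14.3%, against 13.6% of all genes): nas-7 and nas-11, given above, and nas-13, nas-22 and nas-23. The replicate numbers paired these samples too, and with the replicate block 3 of them were called higher in SKN-1t[DNDD] animals. These were nas-13, with a log2 difference of 1.95 ± 0.48 (adjusted p = 0.0164 without the block and 0.00546 with it), nas-22, with 4.83 ± 1.34 (0.0288 and 0.00314), and nas-23, with 1.84 ± 0.42 (0.0119 and 0.00567). For nas-23 all 4 SKN-1t[DNDD] samples were above all 4 SKN-1t[NNNN] samples, while nas-13 and nas-22 overlapped in SKN-1t[DNDD] replicate 1. For mlt-11 the direct difference was -0.75 ± 0.45 (adjusted p = 0.274) and for nas-37 it was -0.73 ± 0.33 (adjusted p = 0.149). With the replicate block these were -1.03 (adjusted p = 0.0329) and -0.88 (adjusted p = 0.0311), and neither was called. The block also brought nas-3, nas-6, nas-27, nas-36, nas-38 and mlt-2 below an adjusted p of 0.05 in this comparison, and none of them was called.

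Other genes of the molting pathway, taken as lists, gave the following counts, to be read against the shares of all genes called above. Of 11 precuticle genes, which encode the transient matrix laid down before each new cuticle, 9 were higher in SKN-1t[NNNN] animals and 9 in SKN-1t[NDNN] animals, with median log2 fold changes of 2.86 and 2.73. In SKN-1t[DNDD] animals 1 was higher, egg-6, at a median of 1.95, and 9 were higher with the replicate block. The zona pellucida-domain gene noah-1 had the most reads of those that rose, at 185.8 CPM in the wild type against 1249 CPM in SKN-1t[NNNN] animals (log2 fold change 2.86 ± 0.36). Of 11 molting regulators, 4 were higher in SKN-1t[NNNN] animals and 4 in SKN-1t[NDNN] animals, nhr-23, grh-1, myrf-1 and lin-29 in each, and 1 in SKN-1t[DNDD] animals, nhr-23. nhr-23 encodes the nuclear receptor that drives each round of molting gene expression, and its log2 fold changes were 3.07 ± 0.27, 2.61 ± 0.35 and 2.16 ± 0.38. No molting regulator was lower.

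Among 9 other proteases and inhibitors of the cuticle, the metalloprotease gene adt-2 was higher in SKN-1t[NNNN] (1.11 ± 0.14) and SKN-1t[NDNN] animals (1.16 ± 0.15). The cathepsin genes cpl-1 and cpz-1 and the Kunitz-type inhibitor gene bli-5 were lower in SKN-1t[NNNN] animals, by log2 fold changes of -1.29 ± 0.18, -1.91 ± 0.27 and -1.64 ± 0.31, and none was called in SKN-1t[DNDD] animals. Of the astacins that have other names, dpy-31, a collagen-processing enzyme, was higher in SKN-1t[NNNN] (1.47 ± 0.12, adjusted p = 5.92e-05) and SKN-1t[NDNN] animals (1.54 ± 0.14, adjusted p = 1.69e-04), and not called in SKN-1t[DNDD] (0.99 ± 0.25, adjusted p = 0.0208), while toh-1 was called in none. Of the tested relatives of mlt-10, 1 of 8 was higher in SKN-1t[NNNN], 2 of 8 in SKN-1t[NDNN] and 0 of 7 in SKN-1t[DNDD] animals. Of 8 NEKL kinase and endocytosis genes none was called against the wild type without the replicate block. Of 7 collagen-modifying enzymes 1 was higher, in SKN-1t[NDNN] only, and of 7 patched and hedgehog-related genes SKN-1t[NNNN] animals had 1 higher and 2 lower, SKN-1t[NDNN] animals 1 and 1, and SKN-1t[DNDD] animals none. With the replicate block, SKN-1t[NDNN] animals had 1 higher kinase or endocytosis gene and 1 higher relative of mlt-10, and SKN-1t[DNDD] animals had 2 higher patched and hedgehog-related genes, 2 higher molting regulators, and 1 higher and 1 lower relative of mlt-10.

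Marker lists of several tissues held called genes. Of 4 markers of the hypodermis, the main epidermis, 2 were higher in SKN-1t[NNNN] animals, 2 in SKN-1t[NDNN] animals and none in SKN-1t[DNDD] animals (2 with the replicate block), and their sum was 247.4 to 753.6 CPM in the wild type and 648.1 to 929 CPM, 959.4 to 1122 CPM and 653.2 to 1039 CPM in the 3 strains. Both tested markers of the seam, the lateral epidermal cells, were higher in SKN-1t[NNNN] animals and in those of SKN-1t[NDNN], and 1 was in SKN-1t[DNDD] animals. In the wild type the seam sum was 4.74 to 11.5 CPM. It was 30.4 to 84.7 CPM in SKN-1t[NNNN], 20.8 to 61.1 CPM in SKN-1t[NDNN] and 11.2 to 45.6 CPM in SKN-1t[DNDD] animals. Of 4 intestine markers, 1, 2 and 3 were lower in the 3 strains, and their sum was 1939 to 2942 CPM in the wild type and 959.7 to 1469 CPM in the transgenic samples. Of 3 body wall muscle markers, 1, 1 and 0 were higher, at a sum of 1244 to 1649 CPM in the wild type and 1903 to 2917 CPM in SKN-1t[NNNN] animals. The muscle sum was 1437 to 2580 CPM in SKN-1t[NDNN] and 1608 to 2694 CPM in SKN-1t[DNDD] animals, both overlapping the wild type. Of 4 germline markers, 1, 1 and 0 were higher in the 3 strains, and 1, 0 and 3 with the replicate block. The germline sum was 40.4 to 151.3 CPM in the wild type. It was 93.2 to 619.8, 70.1 to 317.2 and 88.4 to 818.9 CPM in the 3 strains, all overlapping the wild type. Of 4 sperm markers, 1, 0 and 0 were higher, and 1, 0 and 3 with the replicate block. No marker of these lists was at 0 throughout a group, and their part in the results was not tested.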

How the data were processed

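Raw counts of reads per gene, deposited by the authors, were used as they stand. Per the labels and methods, polyadenylated RNA was made into stranded libraries, sequenced as paired reads in 1 pool, and aligned and counted with STAR 2.7.7a on WBcel235 (FastQC 0.11.9 for quality). Whether strand was used in counting is not given in the sources used here. The table's gene length, a value the authors list, served only for levels per kilobase. Coordinates are from Ensembl release 115.

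Each strain was fitted with the wild type (8 samples), and strains with each other in 1 fit of 16, by edgeR 4.0.16 in R 4.3.3 (filterByExpr with minimum count 10 and total 15, TMM, legacy quasi-likelihood), as in the study's methods. Genes tested numbered 14192 to 14850. A standard error is the log2 fold change over the root of F. Fitting was tested on simulated data. Values in every sample are given for each member called in any comparison, tests also for every mlt- gene and nas-36 to nas-39, and levels for the 5 highest per kilobase. The members and lists were chosen with earlier results of these data known. Alternatives, including DESeq2 1.42.0, were RLE scaling, other filters, newer dispersions, a replicate block, a term for replicates 1 and 2 against 3 and 4, a cutoff of 1.5-fold and 0.05, other sample sets and leaving out each sample.

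Deviations of same-numbered samples from their group means correlated over 0.1 in every pair (0.184 to 0.795) in all comparisons except the wild type against SKN-1t[NNNN] (0.0626 to 0.552), so the numbers were taken to pair samples in the others. Through the other strains the numbers also link the wild type to SKN-1t[NNNN], and that comparison is given both with and without the block. Chi-square per degree of freedom between replicates was 13.5 to 134, so no pair of samples agreed within sampling noise and the spread between samples sets the precision.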

Additional observations from a re-analysis of the deposited data

Results flagged for a closer look

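In groups of 4, a sample was looked at again when its gap to the nearest other sample, as a share of the group's range, passed the 95% limit of Dixon's test. Of 140 groups (35 genes in 4 genotypes), 10 met this, and chance alone gives about 1 in 20. In SKN-1t[NDNN] animals replicate 3 was the highest for nas-8 (9.04 CPM, the others 1.64 to 2.59), nas-1 (1.80 CPM, the others 0) and mlt-2 (16.9 CPM, the others 14.9 to 15.2), and the lowest for nas-37 (131.6 CPM, the others 177.9 to 184.3). Replicate 4 was the highest for nas-14 (2.30 CPM, the others 0.0783 to 0.144) and nas-15 (2.99 CPM, the others 0.157 to 0.587) in SKN-1t[NNNN], and for nas-15 (3.92 CPM, the others 0.605 to 1.02) in SKN-1t[DNDD] animals, where it was the lowest for mlt-3 (12.05 CPM, the others 16.7 to 17.3). SKN-1t[NNNN] replicate 1 was the highest for nas-1 (0.612 CPM, the others 0.0391 to 0.0768) and the lowest for nas-37 (134.0 CPM, the others 178.9 to 184.4).

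The effects of 2 strains differed, at an adjusted p below 0.05 in edgeR's direct comparison of SKN-1t[DNDD] with SKN-1t[NNNN], for 5 genes. This was 14.3% of the 35 tested, near the 13.6% of all genes. SKN-1t[DNDD] was higher by log2 differences of 4.83 for nas-22, 1.95 for nas-13, 1.84 for nas-23 and 1.83 for nas-7, and lower for nas-11 (-0.78). None of these passed the stricter call of the report, and the settings given next called up to 4 of the 35 genes higher.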

How the results depend on the processing

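The 25 calls of members against the wild type had 423 values under the alternatives: 340 kept direction and call, 83 lost the call and 0 changed sign. Of the values kept, 25 came from the looser cutoff applied to the main fit. That setting could not lose a call, so these 25 say nothing on stability. The 7 higher genes of SKN-1t[NNNN] became 4 with RLE scaling, 4 with no filter on low counts and 4 with the replicate block, and 3 to 8 when 1 sample was left out, the lowest without wild type replicate 4; leaving out wild type replicate 2 or 3 or SKN-1t[NNNN] replicate 2 or 3 gave 4. Its 9 lower genes were 6 with the replicate block and 6 to 10 without 1 sample. In this comparison replicate 3 fell short of the correlation limit of 0.1 (0.0626), though each number correlated more with itself than, on average, with the others. The same numbers paired both groups with the other strains, so for this comparison the counts with the block are to be read beside those without it. The 6 higher genes of SKN-1t[NDNN] became 11 under the looser cutoff and 2 to 7 without 1 sample (2 without wild type replicate 4, 3 without replicate 2). Its 2 lower genes became 6 with DESeq2, 4 with the replicate block, 5 with the term for replicates 1 and 2 against 3 and 4, 7 under the looser cutoff and 1 to 7 without 1 sample (7 without SKN-1t[NDNN] replicate 3). The 1 higher gene of SKN-1t[DNDD] became 2 with DESeq2, 3 with the replicate block, 3 with the replicate term, 3 in a single fit of all samples, 3 under the looser cutoff, and 0 to 1 without 1 sample. In the direct comparison of SKN-1t[DNDD] animals with SKN-1t[NNNN] animals, the 0 higher genes became 4 with DESeq2, 3 with the replicate block, 3 with the replicate term, 4 under the looser cutoff and 0 to 3 without 1 sample (3 without SKN-1t[DNDD] replicate 1), and the 0 lower became 1 under the looser cutoff. The cause of these changes was not tested. The shares of all genes called under each setting are not given beside these counts. The counts therefore describe how stable the calls were and were not compared with all genes. Among the nas- and mlt- genes the replicate block changed no call beyond those given with the results. These include the calls of nas-8, nas-9, nas-11, nas-30, nas-33 and nas-38 that it ended for SKN-1t[NNNN] against the wild type. In the lists for SKN-1t[NNNN] against the wild type, higher molting regulators went from 4 to 3, relatives of mlt-10 from 1 to 0 and patched and hedgehog-related genes from 1 to 0 (lower from 2 to 1), and lower proteases and inhibitors from 3 to 2. The log2 fold changes of mlt-2 and nas-11 were at the 2-fold limit (1.01 each for SKN-1t[NNNN]). At these depths 7 of the 42 genes had too few reads to pass the filter.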
